A study of Homo sapiens with 4 samples.

Results

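The genes described here are 10 non-collagen genes of cartilage, namely the transcription factors SOX9, SOX5 and SOX6 and the matrix or membrane genes ACAN, HAPLN1, COMP, MATN3, CHAD, CNMD and SNORC. They were chosen by symbol, for their known role in cartilage, from the 61806 genes of the table, and all 10 were present. The study treated bone cancer cells with melatonin while the cells were kept detached, to examine resistance to anoikis, the cell death that follows loss of contact with the matrix. Poly(A) RNA was sequenced in 4 libraries, 1 for each condition. JJ012 cells come from a human chondrosarcoma, a tumour that forms cartilage matrix, and 143B cells from a human osteosarcoma, a tumour of the bone-forming lineage; both are established lines. Each was grown in suspension without treatment (control) or with 1 mM melatonin for 72 h. Each tumour type was represented by 1 line, so a difference between the lines cannot be told apart from a difference between the tumour types. With 1 library per condition, a difference within 1 line, or between the untreated lines, had no replicate and was not tested. A test of melatonin over both lines, with line as a block, is given once and rests on 1 residual degree of freedom.

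SOX9 is the transcription factor that commits mesenchymal cells to cartilage. It acts with SOX5 and SOX6, which bind beside it in the enhancers of matrix genes and reinforce its action. Aggrecan (ACAN) gives cartilage its water-holding capacity and is anchored to hyaluronan by the link protein HAPLN1, while COMP, matrilin-3 (MATN3) and chondroadherin (CHAD) join collagen fibrils, proteoglycans and cells to each other.

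Sequence just upstream of the start site was available from RefSeq (GRCh38.p14) for 9 of the 10 genes, and SOX9 had no entry. Those of SOX5, MATN3 and CHAD, each of 250 bases and ending at the base before the start site, are shown because with SOX9 these genes had the largest log2 ratios of CPM with melatonin in JJ012, in either direction, among the members with at least 10 counts. Capitals mark matches, on either strand, to the SOX-type words AACAAT (in 8.98% of the 35116 windows in the RefSeq table), ACAAAG (in 13.7%) and ACAATG (in 9.29%), or to the TATA word TATAAA (in 10.7%). The first and the last of the SOX-type words overlap where the sequence reads AACAATG. The SOX5 window lies at chr12:24562492-24562741 on the minus strand, that of MATN3 at chr2:20012669-20012918 on the minus strand, and that of CHAD at chr17:50468881-50469130 on the minus strand.
SOX5: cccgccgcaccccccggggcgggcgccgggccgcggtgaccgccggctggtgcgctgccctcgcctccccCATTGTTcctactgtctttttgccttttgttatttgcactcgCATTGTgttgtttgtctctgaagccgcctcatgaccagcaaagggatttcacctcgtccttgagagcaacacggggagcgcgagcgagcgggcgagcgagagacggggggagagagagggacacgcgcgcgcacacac
MATN3: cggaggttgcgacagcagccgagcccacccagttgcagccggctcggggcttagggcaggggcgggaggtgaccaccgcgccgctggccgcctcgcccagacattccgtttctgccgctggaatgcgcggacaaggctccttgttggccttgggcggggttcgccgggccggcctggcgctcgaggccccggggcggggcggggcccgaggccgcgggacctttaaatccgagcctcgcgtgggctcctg
CHAD: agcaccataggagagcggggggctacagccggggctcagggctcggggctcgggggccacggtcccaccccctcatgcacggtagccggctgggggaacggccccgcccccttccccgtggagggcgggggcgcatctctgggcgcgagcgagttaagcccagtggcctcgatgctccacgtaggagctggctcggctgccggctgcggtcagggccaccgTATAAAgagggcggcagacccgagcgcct

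The SOX5 window held CATTGTT, the overlapping word as read from the other strand, from position -180. It also held CATTGT from position -138, with positions counted back from the start site. Windows with AACAATG made up 2.87% of all windows, and windows with any of the 3 SOX-type words 25.6%. The MATN3 window held none of these words, and neither did the single windows of CHAD, ACAN, COMP and CNMD. HAPLN1 had ACAAAG at position -102 of its single window. SOX6 had at least 1 SOX-type word in 3 of its 5 windows and SNORC in 3 of its 7. CHAD had TATAAA at position -29. These matches describe the letters of the windows only.

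The 4 libraries held between 15889564 and 19218343 counts, so that a floor of 3 counts corresponded to between 0.156 and 0.189 CPM (the count divided by the library total and multiplied by the same constant in every library). Levels between genes were compared in FPKM, the authors' CPM per kilobase of exon. Differences between conditions were called on log2(FPKM + 1), at an absolute value of at least 0.58 (1.49-fold), among genes that reached 1 FPKM in either of the libraries compared. For single genes, the ratio of CPM is given with its exact (Clopper-Pearson) 95% counting interval, which covers counting error and no variation between cultures.

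Of the 10 genes, only SOX9 and SNORC reached 1 FPKM in all 4 libraries. SOX9 alone supplied 72.1% of the genes' counts in untreated JJ012, 66.3% in melatonin-treated JJ012, 76.4% in untreated 143B and 73.8% in melatonin-treated 143B. The summed level of the 10 genes was 20.01 FPKM in the JJ012 control and 9.39 FPKM with melatonin, against 20.73 and 16.88 FPKM in 143B. Without SOX9 the sums were 4.95 and 3.23 FPKM in JJ012 and 5.25 and 4.79 FPKM in 143B. The untreated chondrosarcoma line thus had no higher sum of these genes than the untreated osteosarcoma line.

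Several defining matrix genes of cartilage were at or near the floor. CNMD, which encodes the vessel-inhibiting cartilage protein chondromodulin, had 0 counts in every library, and HAPLN1 had 1 count in the JJ012 control and 0 in the other libraries. ACAN had 4 and 3 counts in JJ012 and 19 and 14 counts in 143B, control first. COL2A1, the chain of type II collagen and the main collagen of cartilage, had 0 counts in both JJ012 libraries and 2 and 5 counts in 143B. Of the marker genes, SOX9 was thus well above the floor in both lines while CNMD, HAPLN1 and COL2A1 were not. Some other cartilage genes stood at clear levels in 1 line, among them COL9A3 at 62.47 FPKM in untreated 143B. In untreated JJ012, COL11A1 was at 22.92, FMOD at 31.88 and MGP at 51.64 FPKM. In the other untreated line COL9A3 was at 3.18 FPKM, and COL11A1, FMOD and MGP had 0 counts. At least 1 FPKM was reached by 5 of 8 cartilage collagens and 7 of 17 other matrix genes in untreated JJ012. In untreated 143B it was reached by 3 and 4 of them. Both lines therefore held a part of the cartilage genes and lacked others at this depth. In RNA from a bulk culture, fewer cells expressing a gene and less RNA per cell cannot be told apart.

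**Figure D1:**
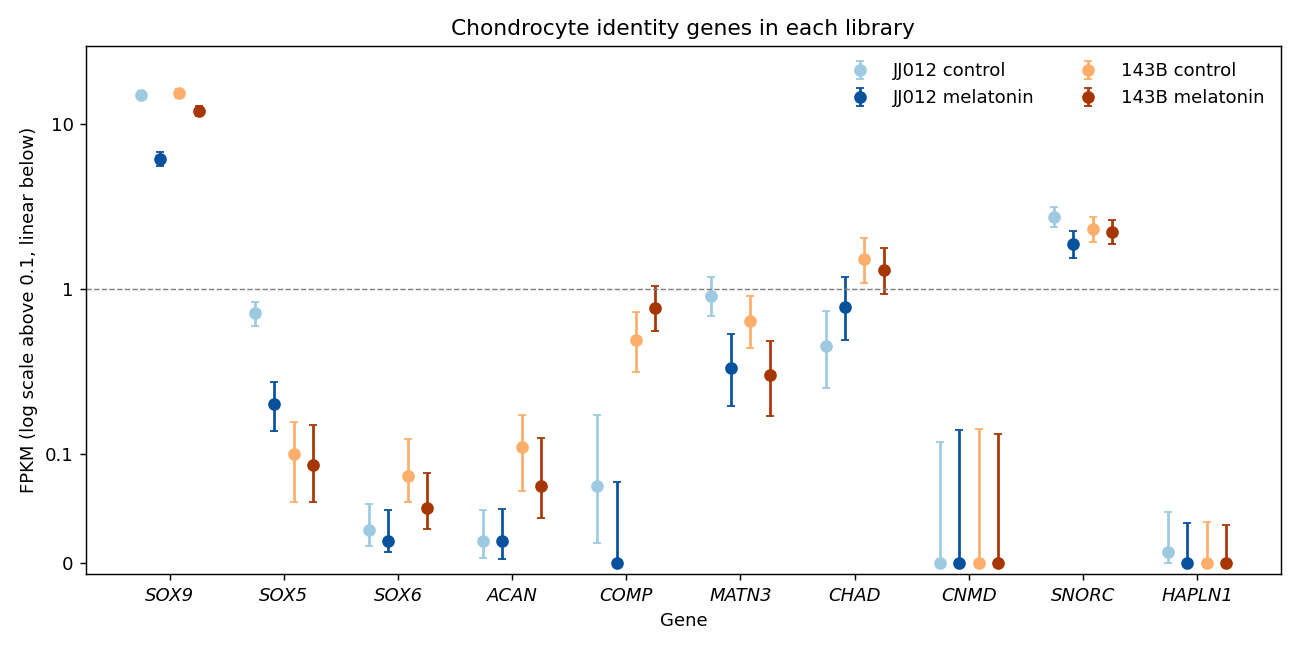
Level of each of the 10 genes in each of the 4 libraries, in FPKM on an axis that is logarithmic above 0.1 and linear below it; points are libraries, bars are exact 95% Poisson counting intervals, and the dashed line marks 1 FPKM. SOX9 stands above the other genes in every library, at 6.16 FPKM in melatonin-treated JJ012 and between 12.09 and 15.48 FPKM in the other 3.

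In every library SOX9 was the first and SNORC the second of the 10 genes by FPKM. The counting interval of SOX9 lay apart from that of SNORC in all 4 libraries. SNORC, a small transmembrane proteoglycan of chondrocytes, lay apart from the gene below it except in untreated 143B, where it overlapped CHAD. In the JJ012 control the next genes were MATN3, SOX5 and CHAD, whose neighbouring intervals overlapped. In the 143B control they were CHAD, MATN3 and COMP, and CHAD lay apart from MATN3 while MATN3 and COMP overlapped. SOX6, ACAN, HAPLN1 and CNMD lay at or below 0.11 FPKM throughout, and neighbours among them overlapped in every library.

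SOX9 (ENSG00000125398, chr17:72121020-72126416, plus strand, hg38) had 1138 counts in untreated JJ012, 391 with melatonin, 967 in untreated 143B and 816 with melatonin. These were 15.06, 6.16, 15.48 and 12.09 FPKM. Melatonin-treated JJ012 was the low library, and the 2 controls were nearly level. By its rank among the genes with counts, SOX9 stood at percentile 90.9 in the JJ012 control and 77.0 with melatonin, against 90.3 and 87.6 in 143B.

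With melatonin, SOX9 was 2.44-fold lower in JJ012 (95% counting interval 2.18 to 2.75) and 1.28-fold lower in 143B (1.17 to 1.41). On log2(FPKM + 1) the differences were -1.17 and -0.33, so that SOX9 passed the fold threshold in JJ012 and not in 143B. The log2 ratio of CPM in JJ012 less that in 143B was -0.93 (95% counting interval -1.15 to -0.72), a difference beyond counting error that was not tested against the spread between cultures. In JJ012, 18.6% of the 15794 genes tested were lower and 19.6% higher by the same threshold, and with TPM in place of FPKM 19.9% were lower and 32.9% higher. The tested genes nearest to SOX9 in exonic length had a median log2 difference of -0.11 in JJ012.

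SOX9 lies within the span of the antisense gene SOX9-AS1, with which it shared 0 exonic bases in GENCODE 29. SOX9-AS1 had 84 and 36 counts in JJ012 and 85 and 62 counts in 143B, far fewer than SOX9. The strand setting of the counting is not given in the sources used here, and the part of such overlaps in the counts was not tested.

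SOX5 (ENSG00000134532, chr12:23529504-24562544, minus strand), a partner of SOX9 without a transactivation domain of its own, had 150 counts in the JJ012 control and 35 with melatonin, against 17 and 18 in 143B. The levels were 0.71 and 0.20 FPKM in JJ012 and 0.10 and 0.09 FPKM in 143B, so the untreated JJ012 library stood above the other 3. With melatonin its CPM was 3.60-fold lower in JJ012 (2.48 to 5.36), while in 143B the log2 ratio of CPM was -0.03 (-1.07 to 1.02). The log2 ratio in JJ012 less that in 143B was -1.80 (-2.88 to -0.72), again beyond counting error. SOX5 did not reach 1 FPKM and so was not among the genes tested on FPKM. Its log2(FPKM + 1) difference in JJ012 was -0.51, while tested genes of like exonic length had a median of 0.33.

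SOX6 (ENSG00000110693, chr11:15966449-16739591, minus strand), the close relative that works with SOX5, was at 0.03 and 0.02 FPKM in JJ012 and 0.08 and 0.05 FPKM in 143B, with 12, 8, 27 and 18 counts. The log2 ratio of CPM with melatonin was -0.33 in JJ012 (-1.83 to 1.08) and -0.70 in 143B (-1.64 to 0.22). A difference was not detectable at this depth in either line. C11orf58, on the other strand, shares 219 exonic bases with SOX6. It had 2910 and 2065 counts in JJ012 and 1796 and 2089 counts in 143B, far more than SOX6. The part of C11orf58 in the SOX6 counts was not tested.

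Among the matrix genes, MATN3 (ENSG00000132031, chr2:19992052-20012668, minus strand) had 55 counts in the JJ012 control and 17 with melatonin, and 32 and 16 counts in 143B. The levels were 0.91 and 0.33 FPKM in JJ012 and 0.64 and 0.30 FPKM in 143B, with the melatonin library the lower in both lines. Its CPM with melatonin was 2.72-fold lower in JJ012 (1.55 to 4.99) and 2.16-fold lower in 143B (1.15 to 4.22). The difference between the lines in this log2 ratio, -0.32 (-1.48 to 0.83), was within counting error. Like SOX5, MATN3 did not reach 1 FPKM in any library.

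SNORC (ENSG00000182600, chr2:232857270-232878708, plus strand) had 199 and 114 counts in JJ012 and 138 and 143 counts in 143B, or 2.75, 1.88, 2.31 and 2.21 FPKM. The JJ012 melatonin library was the lowest of the 4. Its CPM was 1.47-fold lower with melatonin in JJ012 (1.16 to 1.86), and its log2(FPKM + 1) difference of -0.38 did not pass the threshold. In 143B the log2 ratio of CPM was -0.06 (-0.41 to 0.29), and the ratio in JJ012 less that in 143B was -0.49 (-0.96 to -0.02). GIGYF2 overlaps SNORC on the same strand, with 186 shared exonic bases, and its counts of 989 and 1528 in JJ012 and 2729 and 3241 in 143B were higher with melatonin. NGEF, on the other strand, shared 23 exonic bases with SNORC and had 139 and 39 counts in JJ012 and 733 and 749 counts in 143B, lower with melatonin in JJ012 as SNORC was. The part of either gene in the SNORC counts was not tested.

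CHAD (ENSG00000136457, chr17:50464496-50468906, minus strand), a leucine-rich repeat protein that binds chondrocytes to the matrix, had 15 and 22 counts in JJ012 and 42 and 39 counts in 143B. These were 0.45, 0.78, 1.52 and 1.30 FPKM, so that both 143B libraries stood above both JJ012 libraries. The log2 ratio of CPM with melatonin was 0.80 in JJ012 (-0.21 to 1.86) and -0.22 in 143B (-0.89 to 0.45), both within counting error. On log2(FPKM + 1) the JJ012 difference was 0.30, while tested genes of like exonic length had a median of -0.34. CHAD lies wholly within ACSF2, a gene on the other strand with 270 shared exonic bases, which had 984 and 440 counts in JJ012 and 235 and 327 counts in 143B. With melatonin, ACSF2 counts were thus lower in JJ012 and higher in 143B, the opposite of the CHAD counts, and the part of ACSF2 in the CHAD counts was not tested.

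COMP (ENSG00000105664, chr19:18782773-18791305, minus strand), which bridges collagen fibrils, had 4 counts in the JJ012 control and 0 with melatonin, and 24 and 41 counts in 143B. The 143B libraries, at 0.49 and 0.77 FPKM, stood above JJ012, at 0.07 and 0.00 FPKM. In 143B the log2 ratio of CPM with melatonin was 0.66 (-0.10 to 1.45), and in JJ012 the interval, with an upper bound of 0.85, also included 0. ACAN (ENSG00000157766, chr15:88803436-88875353, plus strand) was at 0.02 FPKM in both JJ012 libraries and at 0.11 and 0.07 FPKM in 143B, where its log2 ratio of -0.55 (-1.66 to 0.52) was within counting error. CNMD (ENSG00000136110, chr13:52703264-52739820, minus strand) and HAPLN1 (ENSG00000145681, chr5:83637805-83720855, minus strand) gave no ratio.

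Counted over the genes, melatonin-treated JJ012 had 1 of the 2 testable genes called on FPKM, SOX9, which was lower, where 18.6% of all genes tested were lower and 19.6% higher. In 143B, 0 of the 3 testable genes (SOX9, SNORC and CHAD) were called, where 6.65% of the 14135 genes tested were lower and 6.09% higher. Because most of the 10 genes lay under 1 FPKM, the log2 ratio of CPM was also counted over genes with at least 10 counts in at least 1 library. This rule was added after the data were seen.

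On that scale 6 of the genes could be compared in JJ012. SOX9, SOX5 and MATN3 were lower and CHAD was higher at the threshold of 0.58, with 31.2% of 20512 genes lower and 21.9% higher. The median over the 6 was -0.92, and that over all genes compared was -0.11. In 143B, 8 of the genes could be compared, of which MATN3 and SOX6 were lower and COMP was higher, with 12.2% of 17703 genes lower and 13.5% higher. The median over the 8 was -0.29, and that over all genes compared was 0.03. Of these calls, those of CHAD in JJ012 and of SOX6 and COMP in 143B had counting intervals that included 0.

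Judged by the counting interval alone, 4 of 6 genes in JJ012 (SOX9, SOX5, MATN3 and SNORC) were lower with melatonin and none was higher, where 36.5% of all genes were lower and 31.3% higher by this measure. In 143B, 2 of 8 genes (SOX9 and MATN3) were lower and none was higher, where 22.2% of all genes were lower and 25.9% higher. The 143B share of lower genes was thus close to that of all genes, while none was higher beside 25.9% of all genes. In either line, 6 or 8 genes are too few to set their shares apart from the background.

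Taken over both lines, with line as a block and unlike responses of the lines, pooled over genes, counted as spread, edgeR's quasi-likelihood test with Benjamini-Hochberg adjustment called 0 of the 8 members tested. Over all 19301 genes tested it called 12 higher (0.0622%) and 56 lower (0.290%), and 1139 genes, or 5.90%, had an unadjusted p under 0.05. SOX9 was the only member with an unadjusted p below that value (log2 ratio -0.83, adjusted p = 0.751 by this test), and MATN3 had a log2 ratio of -1.28 (adjusted p = 0.987 by edgeR). The median prior degrees of freedom of this test were infinite, so its spread came from all genes together rather than from each gene alone. With this design, a p that misses the threshold does not show that the levels were alike.

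**Figure D2:**
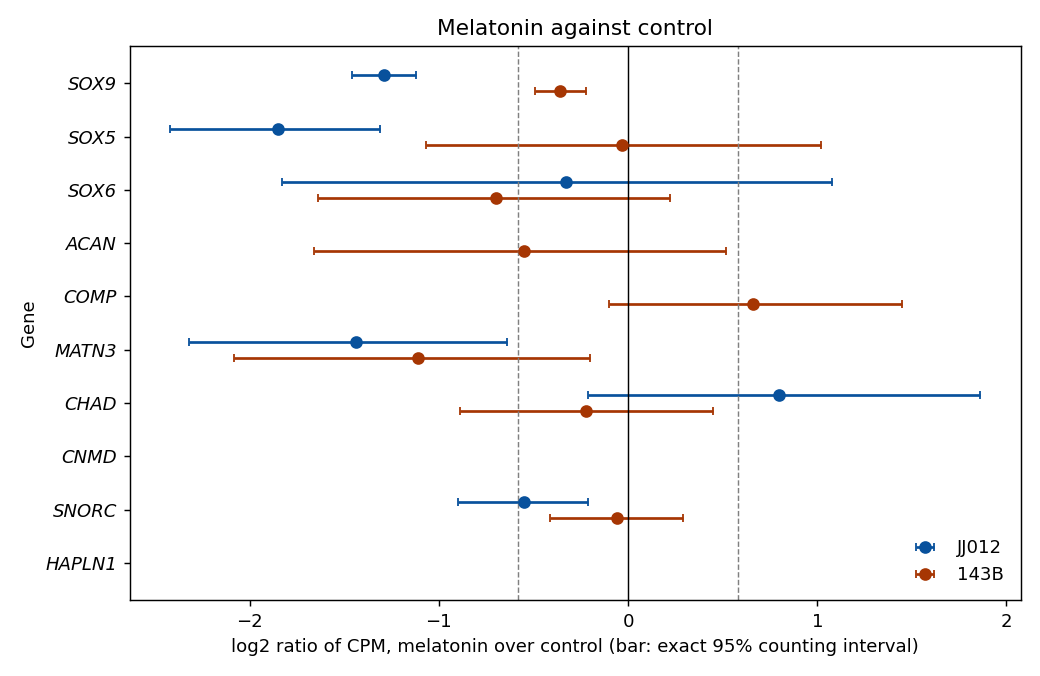
Log2 ratio of CPM with melatonin over control for each gene in JJ012 and 143B; bars are exact 95% counting intervals, dashed lines mark -0.58 and 0.58, and a point is drawn only where both libraries held more than 3 counts. The JJ012 intervals of SOX9, SOX5, MATN3 and SNORC lie below 0, and in 143B those of SOX9 and MATN3 do.

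The untreated lines were compared to set the cartilage genes of a chondrosarcoma line beside those of an osteosarcoma line. SOX9 was at 15.06 FPKM in JJ012 and 15.48 FPKM in 143B, with a log2 ratio of CPM of -0.04 (-0.16 to 0.09). The scaling mattered here, since the median log2(FPKM + 1) difference over all genes tested was 0.29 as deposited, -0.06 after TMM scaling and 0.00 after scaling with DESeq2 size factors. The log2 ratio of SOX9 was -0.39 with TMM factors and -0.33 with DESeq2 size factors, both outside the counting interval of the unscaled ratio. Whether SOX9 was level or slightly lower in JJ012 thus depended on the scaling.

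SOX5 was the gene with the clearest excess in JJ012, at 150 counts against 17, or 7.30-fold higher in CPM (4.41 to 12.9). CHAD was 3.39-fold lower in JJ012 than in 143B (1.84 to 6.57) and COMP 7.26-fold lower (2.49 to 28.8). ACAN was 5.75-fold lower (1.91 to 23.2), and SOX6 had a log2 ratio of -1.44 (-2.56 to -0.41). MATN3, at 0.51 (-0.15 to 1.18), did not differ beyond counting error. SNORC, at 0.25 (-0.07 to 0.58), did not either, and its sign turned with TMM factors (-0.10) and DESeq2 size factors (-0.04).

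By the FPKM rule 1 of 3 testable genes, CHAD, was called between the untreated lines, and it was lower in JJ012, where 27.4% of the 16929 genes tested were lower and 41.3% higher (35.5% and 32.4% after TMM scaling). CHAD, at 0.45 FPKM in JJ012, passed the filter of 1 FPKM only through 143B, so it could not have come out higher in JJ012. By the ratio of CPM, 4 of 8 genes (ACAN, CHAD, COMP and SOX6) were lower in JJ012 and 1, SOX5, was higher, with 28.1% of 21694 genes lower and 49.8% higher. The counting intervals of all 5 excluded 0, as did those of 32.4% of all genes on the lower and 53.2% on the higher side. The median over the 8 genes, ACAN and COMP among them, was -0.74, against 0.57 over all genes compared. The JJ012 control and the 143B control also serve in the melatonin comparisons, so these comparisons are not independent of each other.

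**Figure D3:**
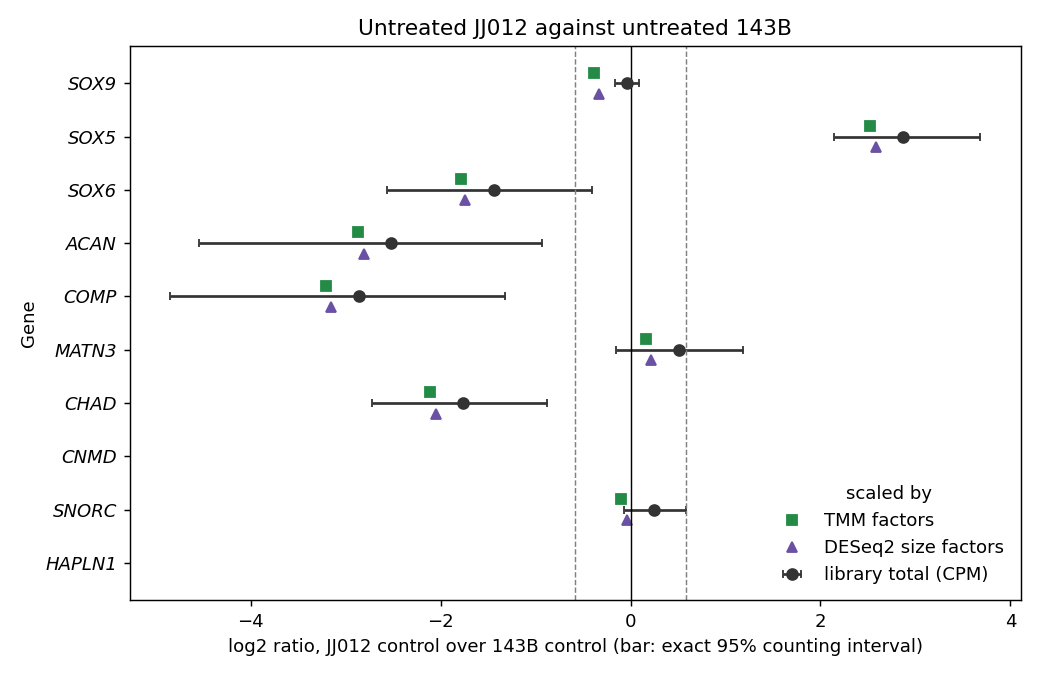
Log2 ratio of untreated JJ012 over untreated 143B for each gene, scaled by the library total (circles, with exact 95% counting intervals), by TMM factors (squares) or by DESeq2 size factors (triangles); dashed lines mark -0.58 and 0.58, and genes with 3 counts or fewer in either library are not drawn. SOX5 lies to the right at 2.87, SOX6, ACAN, COMP and CHAD lie to the left, and the sign of SNORC and of MATN3 near 0 should be read beside the spread between scalings, which turned that of SNORC.

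Other genes of cartilage were taken from written lists and counted by the FPKM rule. Counts by that rule with melatonin, here and in the following paragraphs, stand beside 18.6% of all genes tested lower and 19.6% higher in JJ012. In 143B these shares were 6.65% lower and 6.09% higher. Counts by the ratio of CPM stand beside 31.2% of all genes compared lower and 21.9% higher in JJ012. In 143B the shares by that ratio were 12.2% lower and 13.5% higher. In JJ012, all 5 testable cartilage collagens were lower with melatonin. COL11A1, a chain of type XI collagen that nucleates cartilage fibrils, was at 22.92 FPKM in the control and 3.24 FPKM with melatonin. COL9A2 was at 4.86 and 1.35 FPKM and COL9A3 at 3.18 and 0.68 FPKM, both chains of the fibril-coating type IX collagen. COL11A2 and COL27A1 were also lower, and the median of the 5 was -1.32 against 0.01 for all genes tested. By the ratio of CPM, all 5 collagens compared were also lower in JJ012, as were 9 of 11 other matrix genes and 7 of 13 relatives of the members. Among these lower genes, the counting intervals of MATN1, PRELP and SOX10 included 0. In 143B, 0 of 3 testable collagens were called, and COL9A3 was at 62.47 and 53.93 FPKM. By the ratio of CPM in 143B, 0 of 4 collagens were called, and 2 of 6 other matrix genes (FRZB and MATN4) were lower. Of 11 relatives of the members there, 2 were lower (MATN4 and THBS1) and 2 higher (BCAN and THBS2). The 143B counting interval of MATN4 included 0.

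Among other cartilage matrix and secreted genes in JJ012, 4 of 7 were lower with melatonin and none was higher, with a median of -0.66. These were MGP, an inhibitor of calcification (51.64 and 13.54 FPKM), CILP, a protein of the cartilage intermediate layer (3.96 and 0.22 FPKM), CYTL1 and HAPLN3. FMOD, a collagen-binding proteoglycan, was at 31.88 and 21.80 FPKM and was not called. MGP and FMOD had 0 counts in both 143B libraries. In 143B, 1 of 4 was lower, the Wnt antagonist FRZB (1.15 and 0.24 FPKM).

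Of 12 testable transcription factors and SOX9 partners in JJ012, 6 were higher with melatonin, 1, PRRX1, was lower and 5 were not called, with a median of 0.52. By the ratio of CPM, 6 of 14 were higher and 4 lower (ARID5B, NKX3-2, PRRX1 and ZNF219), with a median of 0.20 against -0.11 for all genes compared. The higher genes were the coactivators EP300 (5.11 and 12.58 FPKM), CREBBP (3.34 and 7.64 FPKM) and PPARGC1A (0.57 and 3.65 FPKM), and the factors FOXC1, FOXC2 (8.47 and 18.13 FPKM) and RUNX3. The median difference in JJ012 varied with exonic length. It was 0.33 over tested genes near the length of SOX5 (11062 bases) and -0.34 over those near CHAD (1742 bases). Medians of like length were not computed for this list, and the part of length in its median was not tested. In 143B, 1 of 10 was lower, TRPS1 (7.29 and 4.37 FPKM), and none was higher. By the ratio of CPM in 143B, 2 of 14 were lower (RUNX2 and TRPS1). By that ratio 1, PPARGC1A, was higher, as in JJ012, at 2.01-fold (1.33 to 3.12).

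Among the nearest relatives of the 10 genes, 3 of 9 were lower in JJ012 with melatonin and none was higher, with a median of -0.16. MATN2, a matrilin expressed in many tissues besides cartilage, was at 73.20 and 30.10 FPKM, and THBS3, a relative of COMP, at 49.22 and 25.70 FPKM. Both were far above MATN3 and COMP in JJ012, and in untreated 143B they were at 0.20 and 1.03 FPKM. In 143B, 1 of 8 relatives was higher with melatonin, THBS2 (8.27 and 13.46 FPKM). The relatives list shares HAPLN3, MATN1 and MATN4 with the list of matrix genes.

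Among growth plate signals, 0 of 4 were called in JJ012 by the FPKM rule. By the ratio of CPM, 5 of 8 were lower there (FGFR3, GDF5, NOG, PTH1R and PTHLH) and 1, FGF18, was higher, with a median of -0.85. The counting intervals of PTHLH (-2.68 to 0.12) and FGF18 (-0.65 to 1.88) included 0. The receptor FGFR3 was at 0.91 and 0.28 FPKM in JJ012, a log2 ratio of CPM of -1.70 (-2.45 to -1.01), and at 11.72 and 18.29 FPKM in 143B. In 143B, 2 of 5 were higher by the FPKM rule, FGFR3 and PTHLH (0.85 and 2.05 FPKM), the ligand that delays chondrocyte hypertrophy. By the ratio of CPM in 143B, 3 of 7 were higher (FGFR3, PTHLH and PTH1R) and 1, BMPR1B, was lower. The 143B counting interval of PTH1R included 0. Of the matrix proteases, 3 of 5 were lower in JJ012, HTRA1 (82.03 and 41.90 FPKM), MMP1 (6.86 and 1.04 FPKM) and MMP13 (2.30 and 0.87 FPKM). MMP1 was higher in 143B (994.01 and 1503.96 FPKM), the only one of 5 called there. The hyaluronan synthase HAS2 was lower in JJ012 (1.39 and 0.10 FPKM), 1 of 2 testable genes of the hyaluronan list, and HAS3 was lower in 143B (10.57 and 3.29 FPKM), 1 of 4. By the ratio of CPM, HAS2 was lower in 143B too, at -0.63 (-0.99 to -0.28), so that 2 of 4 were lower there.

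Markers of neighbouring cell types moved with melatonin in JJ012 as well. Of the fibroblast and tendon markers, 6 of 7 testable genes were lower, with a median of -1.69, and the summed level of the 9 markers was 1451.64 FPKM in the control and 686.62 FPKM with melatonin. Most of this sum was FN1 (799.64 and 457.91 FPKM) and VIM (610.99 and 224.27 FPKM). COL3A1, a fibrillar collagen of soft tissues, was at 10.05 and 0.09 FPKM, and COL1A2, a chain of bone and tendon collagen, at 12.48 and 0.14 FPKM. TNMD, a defining tendon marker, had 0 counts in every library. In 143B, 1 of 3 was lower, FN1, and the sum was 1749.27 and 1554.56 FPKM, most of it VIM (1676.32 and 1517.09 FPKM).

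Of the osteoblast markers, 2 of 6 testable genes were lower in JJ012, COL1A1 and COL1A2, which the fibroblast list also holds. The median was -0.34 and the sum over the 12 markers 110.81 and 71.72 FPKM, most of it SPP1 (79.39 and 64.50 FPKM). DMP1 was at 0 in all 4 libraries. In 143B, 1 of 4 was higher, DLX5, and the sum was 10.27 and 10.55 FPKM. Of the hypertrophic chondrocyte markers, 1 of 3 was lower in JJ012, MMP13, and 0 of 1 was called in 143B. Their sums were 8.05 and 4.89 FPKM in JJ012 and 1.62 and 1.87 FPKM in 143B, and IHH had 0 counts in both JJ012 libraries. By the ratio of CPM, 5 of 8 osteoblast markers were lower in JJ012 (ALPL, BGLAP, COL1A1, COL1A2 and PHEX), with a median of -1.18. So were 2 of 3 hypertrophic markers (MMP13 and PTH1R), with a median of -0.73, and no marker of either list was higher. In 143B by the same ratio, 2 of 7 osteoblast markers were lower (ALPL and RUNX2) and 1, DLX5, was higher. Of 3 hypertrophic markers there, 1, PTH1R, was higher. The 143B counting intervals of ALPL and PTH1R included 0. The part of other cell states in the lower levels of SOX9, SOX5 and MATN3 was not tested.

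**Figure D4:**
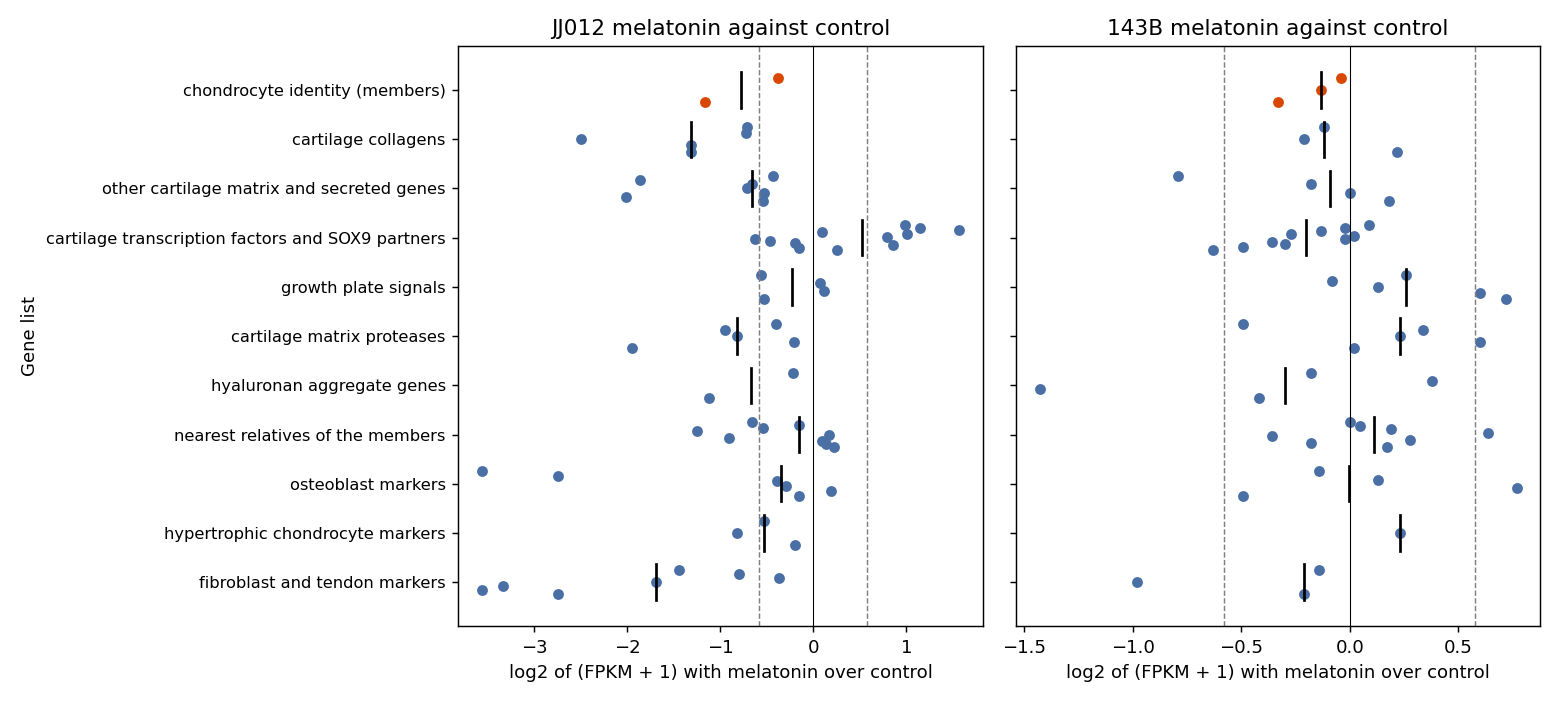
Log2 of (FPKM + 1) with melatonin over control for every testable gene of the 10 cartilage genes (orange) and of 10 other lists (blue), in JJ012 (left) and 143B (right, on a narrower axis); black bars are list medians and dashed lines mark -0.58 and 0.58. In JJ012 the 5 cartilage collagens lie below -0.58 and 6 of 12 transcription factors and partners lie above 0.58, while in 143B most genes lie between the dashed lines.

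Untreated, the lines also differed in the other cartilage genes. By the FPKM rule, 2 of 5 cartilage collagens were higher in JJ012 (COL11A1 and COL11A2) and 2 were lower (COL9A3 and COL27A1). Of 8 matrix and secreted genes, 4 were higher (CILP, FMOD, MATN4 and MGP) and 2 lower (CRTAC1 and CYTL1). Of 12 transcription factors and partners, 3 were higher and 5 lower, and of the 6 growth plate genes 2 were higher and 3 lower, with the BMP antagonist NOG at 2.01 FPKM in JJ012 and 94.48 FPKM in 143B. These counts lie beside shares of 41.3% higher and 27.4% lower over all genes tested.

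The levels of SOX9 over the 4 libraries were compared with those of 9673 genes that reached 5 FPKM in at least 1 library, by the Euclidean distance between log2(FPKM + 1) profiles centred on their own means. The nearest was GMPPA, a regulator of GDP-mannose synthesis, at a distance of 0.0798, with 10.38 and 4.38 FPKM in JJ012 and 10.58 and 8.65 FPKM in 143B. VAMP5, a vesicle membrane protein, followed at 0.125, with 8.50, 2.90, 8.05 and 6.86 FPKM. HOXC4, a homeobox gene, was at 0.155, with 6.30, 2.19, 6.66 and 5.71 FPKM. All 3 shared with SOX9 the low value in melatonin-treated JJ012 and nearly level controls, and 4 points per gene are too few to set such likeness apart from that of other genes.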

How the data were processed

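Poly(A) RNA of JJ012 and 143B cells in suspension, untreated or with 1 mM melatonin for 72 h, was sequenced as 150-base paired reads, with 1 library per condition. The counts deposited by the authors are whole numbers for each gene in each library, not normalized, with FPKM computed from these counts, the exonic length and the library total. The submitters' processing notes name cutadapt 1.9.1, HISAT2 2.2.1, HTSeq 0.6.1 and DESeq2, with the hg38 build. The counting unit (single reads or pairs) and the strand setting are not given in the sources used here. Columns were matched to samples by line name, and the suffix T was taken to mean treated with melatonin. Log2 differences used a pseudocount of 1 FPKM, a filter of 1 FPKM in at least 1 library and a threshold of 0.58. Ratios of CPM carry exact (Clopper-Pearson) 95% intervals, single levels exact Poisson intervals, and differences between lines an interval with 0.5 added to each count. All intervals, and the floor of 3 counts, cover counting error only. They take counts as independent, which PCR reads are not, and the counting unit is unknown. The intervals may thus be too narrow even for counting error. Totals between 15889564 and 19218343 counts set this precision.

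The 10 genes and the lists were chosen with earlier results of these data known. The genes named were all 10 members, list genes past the threshold (or the highest where none passed; some are given in counts only) and the 3 genes nearest SOX9 in profile. FMOD, SPP1, COL2A1, NOG, TNMD, DMP1, IHH, and overlapping genes were named after their values were seen. Alternatives were another pseudocount, filter, threshold or background, TPM, CPM, the median gene as zero, TMM (edgeR 4.0.16) and DESeq2 (1.42.0) scaling, and the ratio of CPM over genes with at least 10 counts. Overlaps came from GENCODE 29, in which 89.5% of the 58254 shared genes had the same end, and promoter windows from RefSeq GRCh38.p14. Scripts (Python 3.11.15, R 4.3.3) were tested on simulated data. A count test within 1 line was not run for want of replicates. An edgeR quasi-likelihood test of melatonin over both lines, with line as a block and 1 residual degree of freedom, was added after seeing the data.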

Additional observations from a re-analysis of the deposited data

Results flagged for a closer look

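On CPM, scaled by the library total alone, the response to melatonin differed between the lines for 3 of the 10 genes by more than counting error. The log2 ratio of CPM in JJ012 less that in 143B was -0.93 for SOX9 (95% counting interval -1.15 to -0.72), -1.80 for SOX5 (-2.88 to -0.72) and -0.49 for SNORC (-0.96 to -0.02). Each ratio rests on 1 library per condition, so that these differences were not tested against the spread between cultures. The interval of SNORC ends close to 0. With TMM factors the log2 ratios of SNORC were -0.47 in JJ012 and -0.05 in 143B, and with DESeq2 size factors -0.57 and -0.10. No interval for the difference was computed under either scaling, so the place of SNORC among the 3 genes holds for CPM only. No other gene of the 10 with counts above the floor in either line had an interval that excluded 0. This difference was computed for the 10 genes only, so no share over all genes stands beside it. Within JJ012, 36.5% of all genes compared were lower and 31.3% higher by the counting interval, against 22.2% and 25.9% in 143B.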

How the results depend on the processing

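A paired analysis within 1 line was not possible, since each condition had 1 library and no replicate number. With line as the replicate block, added after seeing the data, edgeR's quasi-likelihood test over both lines called 0 of 8 members. For JJ012 with melatonin (1 of the 10 genes called as reported), 3 were called on CPM with a pseudocount of 1 (SOX9, SOX5 and MATN3), 4 on the ratio of CPM (those and CHAD, higher) and 4 on TPM (the same 4), and under the other alternatives 1, SOX9. Shares of all genes there, higher and lower, were 19.5% and 23.2% on CPM, 21.9% and 31.2% on the ratio, and 32.9% and 19.9% on TPM. For 143B (0 called), CPM and TPM each called 1 (MATN3) and the ratio of CPM called 3. The shares of all genes in 143B were 7.36% and 6.49% on CPM, 13.5% and 12.2% on the ratio, and 13.2% and 15.4% on TPM. Between the untreated lines (1 called, CHAD), CPM called 5, the ratio of CPM 5, TPM 3 and no filter 2, while a filter of 5 FPKM and a threshold of 1 each called 0. Shares of all genes between the lines were 45.3% and 27.2% on CPM, 49.8% and 28.1% on the ratio, and 38.5% and 36.5% on TPM. They were 23.9% and 15.2% with no filter, 40.5% and 28.9% with the filter of 5 FPKM, and 28.7% and 18.5% at the threshold of 1. CPM and TPM let more genes past the filter and the filter of 5 FPKM let fewer, while the threshold of 1 tested the same 3 genes. No member called as reported was called in the opposite direction under another setting. Over all genes the split between higher and lower calls did turn, as the counts below show, and with TMM factors it was 5419 and 5938 between the lines. TPM moved the median gene in JJ012 from 0.01 to 0.21, with 32.9% of genes higher and 19.9% lower. Over all genes, a threshold of 1 left 1241 higher and 1086 lower of the 3102 and 2934 in JJ012, 242 and 387 of the 861 and 940 in 143B, and 4853 and 3137 of the 6990 and 4636 between the lines. A filter of 5 FPKM gave 1861 and 1491, 280 and 267, and 3590 and 2562 in the same order, and the ratio of CPM 4494 and 6406, 2385 and 2168, and 10800 and 6102. TPM gave 7637 and 4627 in JJ012, 2782 and 3255 in 143B, and 9475 and 8987 between the lines. A pseudocount of 0.1 FPKM gave 1514 and 1434 in 143B, and protein-coding genes alone 2054 and 1853 in JJ012 and 379 and 283 in 143B. Of 22 single ratios, 21 stayed within their counting interval with DESeq2 size factors, 20 with TMM factors and 15 with log2(FPKM + 1), which understates the differences of genes of low level. Depth limits SOX6, ACAN, COMP, HAPLN1 and CNMD most.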
